A study of Mus musculus with 7 samples.

Results

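The mitochondrial genome of mouse embryonic stem cells (ESCs) was described through the RNA-seq alignments that lie on it. Its mm9 sequence of 16299 nt was divided into consecutive bins of 50 nt from the first base, each strand apart, which gave 652 bins over both strands, of 106196484 such bins over every mm9 sequence with alignments. An alignment was counted in the bin that holds its midpoint, on the strand it was listed on. The cells were E14, an established ESC line of strain 129/Ola, untreated, grown without feeder cells on gelatin with LIF, the cytokine that keeps ESCs undifferentiated. Per the labels, total RNA was taken from whole cells, depleted of ribosomal RNA with Ribo-Zero Gold and made into a TruSeq library, and no source used here states that the kit kept the strand of the RNA. The RNA-seq had 1 library, so there is no replicate, no test was made, and every interval below covers counting error only. The study also made 6 libraries of CIRS-seq, which maps RNA structure through the places where reverse transcriptase (RT) stops on the RNA. The 2 CIRS-seq libraries of untreated (NT) lysate of E14 cells are set beside the RNA-seq at the end.

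Mitochondrial DNA is a circle that carries genes for 2 rRNAs, 22 tRNAs and 13 mRNAs, whose proteins are core subunits of the respiratory chain and the ATP synthase. Both strands are transcribed into long precursors, and the tRNAs, which lie between most of the other genes, are cut out so that the rRNAs and mRNAs are set free. The non-coding control region holds the promoters and the origin of heavy-strand replication, and OriL, a short hairpin between mt-Tn and mt-Tc, is where synthesis of the light strand starts.

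The stretches below are those that the depth turned on, all read 5′ to 3′ from the plus strand of mm9. In the first pair, from the ends of mt-Rnr2, capitals mark the bases of the gene outside the most frequent alignment end. In the third, capitals mark OriL between the outer bases of mt-Tn and mt-Tc. In the fourth, capitals mark the start of mt-Co3, which follows mt-Atp6 with no tRNA between. The last 3 are a tRNA gene with hardly any alignment, and the deepest control-region bin and the shallowest one that was not empty.
5′ end of mt-Rnr2 (chrM:1094-1153): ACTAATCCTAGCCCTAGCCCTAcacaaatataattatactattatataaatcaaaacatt
3′ end of mt-Rnr2 (chrM:2601-2675): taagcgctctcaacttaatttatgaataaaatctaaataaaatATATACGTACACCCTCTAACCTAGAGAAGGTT
mt-Tn to mt-Tc with OriL (chrM:5145-5206): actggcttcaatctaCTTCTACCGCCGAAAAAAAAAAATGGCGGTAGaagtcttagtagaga
mt-Atp6 to mt-Co3 (chrM:8583-8632): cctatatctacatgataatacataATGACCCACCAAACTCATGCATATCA
mt-Td (chrM:6942-7011): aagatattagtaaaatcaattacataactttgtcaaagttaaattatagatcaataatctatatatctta
Control region, deepest bin (chrM:16001-16050): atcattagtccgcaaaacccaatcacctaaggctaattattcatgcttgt
Control region, shallowest bin above none (chrM:16201-16250): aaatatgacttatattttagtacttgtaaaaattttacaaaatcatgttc

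Of 31857551 alignments in the library, 3579654 were on the mitochondrial genome, all 50 nt long and ungapped. Since a read can be listed at up to 10 places, the share was also taken by read, and 3577622 of 22668730 reads, or 15.8%, had an alignment there. The markers went with the label of the cells. All 10 ESC genes were covered, from 119 alignments per kb of exon for Utf1 to 7032 for Dppa5a, with 2387 for Pou5f1. The 4 fibroblast feeder genes had 0.128 to 7.49 per kb, and 5 genes of differentiated lineages had 2.16 per kb for T to 97.1 for Gata6.

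Depth was uneven by orders of magnitude along the circle. With both strands together, a bin held a median of 257 alignments, with quartiles of 94.8 and 3220.2 and a highest value of 161359. The median was 82.0 with only reads listed once and 52.0 with identical alignments counted once. The 10 deepest bins held 35.2% of all mitochondrial alignments, and the 32 deepest held 87.3%. The 5 deepest bins were all inside mt-Rnr2, the gene of the large ribosomal RNA. They were chrM:2451-2500 with 161359 alignments, chrM:1201-1250 with 154870, chrM:2601-2650 with 139431, chrM:2301-2350 with 137727 and chrM:1301-1350 with 122585. The 5 shallowest bins were in the control region or at tRNA genes. The last bin of the control region, chrM:16251-16299, was empty, which allows up to 3 alignments (a one-sided limit), and the bins from 16201 and 16151 held 2 and 13. An alignment must lie whole within the linear reference, so only part of the last bin, and of the first, can hold a midpoint. The other shallow bins were chrM:1001-1050, on the border of mt-Rnr1 and mt-Tv, with 3 alignments and chrM:6951-7000, inside mt-Td, with 4. Each strand alone had 2 empty bins, so 4 of the 652 held no alignment. They included both strands of the last bin and the minus strand of the first. With only reads listed once, 208 bins held none.

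**Figure D1:**
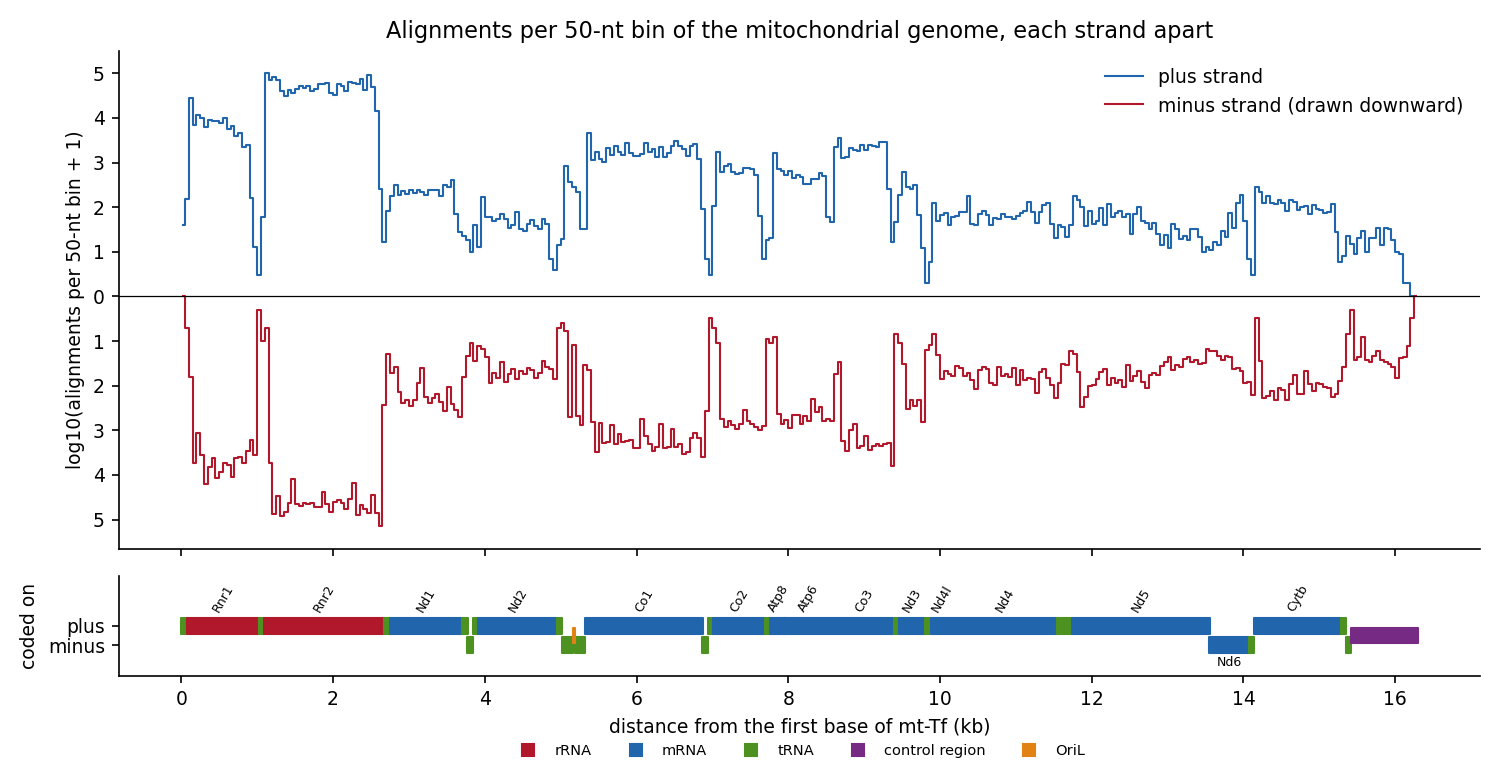
Alignments in each bin on the plus strand (upward) and the minus strand (downward, both as log10 of the count plus 1) against the distance from the first base of mt-Tf, with the genes below by coding strand. The highest plateau is mt-Rnr2, where the deepest bin holds 161359 alignments on both strands together, and the counts drop sharply at most gene borders.

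The rRNA genes held 93.1% of the mitochondrial alignments although the RNA had been depleted of rRNA. The gene of the large subunit rRNA, mt-Rnr2, had 1958673 alignments per kb, and that of the small subunit rRNA, mt-Rnr1, had 244705, so that the larger was 8.00-fold deeper (95% exact binomial interval 7.97 to 8.04). Within mt-Rnr2, the 31 bins that lie wholly inside the gene ran from 48923 to 161359 alignments with a median of 98257. Depth in mt-Rnr1 was lower toward its 3′ end. Leaving out 100 nt at each end, the first and middle of 3 equal parts of mt-Rnr1 had 308589.6 and 314782 alignments per kb and the last had 155107, a ratio of last to first of 0.503. The same ratio was 1.06 in mt-Rnr2.

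The 13 mRNA genes held 6.72% of the mitochondrial alignments, and among them those of cytochrome c oxidase (complex IV), the last enzyme of the respiratory chain, were deepest. The highest was mt-Co3 with 81119.9 alignments per kb, then mt-Co1, the catalytic subunit, with 74272, a fold of 1.09 (1.08 to 1.10). With identical alignments counted once or only reads listed once, mt-Co1 was the highest, but neither count can order the 2 genes. The former is limited by the number of places in a gene, and mt-Co3 has no read listed once. The other subunit gene, mt-Co2, had 25753 per kb. Without the rRNA genes, the 3 complex IV genes held 79.2% of what remained. The ATP synthase genes mt-Atp8 and mt-Atp6, which overlap, had 23005 and 19073 per kb.

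Complex I, the NADH dehydrogenase that passes electrons to ubiquinone, has 7 of its genes here, and they held 9.32% of the alignments outside the rRNA genes. Their depth was not uniform. The deepest were mt-Nd3 with 9954 alignments per kb and mt-Nd1 with 8413, though 100% of the alignments of mt-Nd3 and 0% of those of mt-Nd1 were listed elsewhere too. The others were mt-Nd4 with 2797, mt-Nd5 with 2291, mt-Nd4l with 2051, mt-Nd2 with 1916 and mt-Nd6 with 1776. Between the first pair and the rest stood mt-Cytb, the complex III cytochrome, with 4608 per kb. From mt-Co3 to mt-Nd6 the depth differed 45.7-fold (42.8 to 48.8). With identical alignments counted once, the fold from the highest to the lowest mRNA gene was 2.82. With only reads listed once it could not be taken, as mt-Co3 has none. In the order of the 13 genes, 2 pairs of neighbours did not differ beyond counting error. These were mt-Nd4l over mt-Nd2, with a fold of 1.07 (0.976 to 1.17), and mt-Nd2 over mt-Nd6, with a fold of 1.08 (0.997 to 1.17). For scale, Zfp42, a nuclear ESC gene, had 4531 alignments per kb of exon, near mt-Cytb.

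Along the 11 mRNA genes long enough to be divided, the last of 3 equal parts in the direction of the RNA was deeper than the first in 4 and shallower in 7. It was deeper in mt-Co3 (94185 against 66201 per kb), mt-Co1 (83414 against 67299), mt-Nd1 (10273 against 8448) and mt-Nd4 (3201 against 2696). The ratio of last to first was 0.734 in mt-Nd2, 0.735 in mt-Cytb, 0.810 in mt-Atp6, 0.833 in mt-Nd3 and 0.891 in mt-Co2. It was lowest in mt-Nd5 (0.298) and mt-Nd6 (0.271), which lie on opposite strands and overlap at their 3′ ends. In mt-Nd5 the 3 parts had 3567, 2318 and 1063 alignments per kb, and in mt-Nd6 they had 3271, 1500 and 887. In both genes the part nearest their overlap was the shallowest, though the overlap itself lies in the outer 100 nt that were left out. The bin over the overlap, chrM:13551-13600, held 26 alignments. The least covered bin inside mt-Nd5, chrM:13501-13550, held 26 as well.

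**Figure D2:**
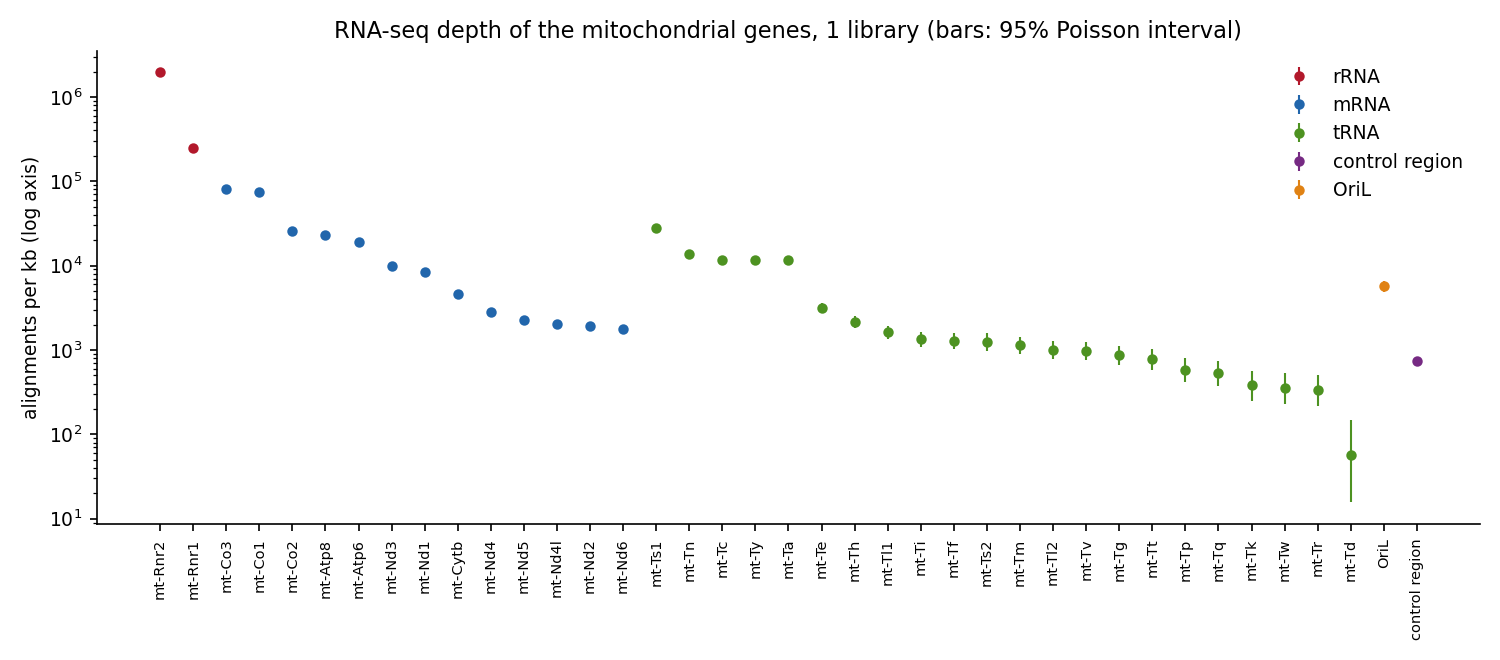
Alignments per kb (log axis) of the 37 genes, OriL and the control region, ordered by depth within each kind, with 95% Poisson intervals that cover counting error of the 1 library. The rRNA genes stand at 1958673 and 244705, the mRNA genes run from 81119.9 to 1776, and 5 tRNA genes coded on the minus strand stand above 11000.

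The 22 tRNA genes held 6469 alignments, or 0.181% of the mitochondrial ones. The share was 0.0598% with only reads listed once and 4.31% with identical alignments counted once, a count that cannot grow with depth in deep genes. They are 59 to 75 nt long, so an alignment with its midpoint in such a gene often reaches into its neighbours. The 14 tRNA genes coded on the plus strand had 971 alignments per kb together, and the 8 coded on the minus strand had 10102. The difference sat in 5 of the 8, and the reads of mt-Ts1 and mt-Ty were all, and those of mt-Tn nearly all, listed at another place too. mt-Ts1, which lies against the 3′ end of mt-Co1 on the other strand, had 27710.1 per kb, and the neighbours mt-Tn, mt-Tc, mt-Ty and mt-Ta, transfer RNAs for asparagine, cysteine, tyrosine and alanine, had 13901, 11712, 11701 and 11565. The other 3 minus-coded genes had 3116 (mt-Te), 582 (mt-Tp) and 535 (mt-Tq). On the plus strand the highest was mt-Th with 2134 per kb, and 8 more stood between 868 and 1627, namely mt-Tl1, mt-Ti, mt-Tf, mt-Ts2, mt-Tm, mt-Tl2, mt-Tv and mt-Tg. mt-Tt had 776, mt-Tk 385, mt-Tw 358 and mt-Tr 338. The lowest of the 22 was mt-Td, the aspartate tRNA printed above, with 4 alignments or 57.1 per kb (15.6 to 146).

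On the whole mitochondrial genome, 51.7% of the alignments were on the plus strand, although 12 of the 13 mRNA genes and both rRNA genes are coded there. The strand depended instead on the place within a gene. Over the 15 rRNA and mRNA genes, the plus strand held a median of 94.2% of the alignments in the 100 nt at the left end of the gene, in the direction of the reference. In the middle it held 51.3%, and in the 100 nt at the right end 8.50%. (In mt-Atp8 and mt-Nd4l, which are short, the outer parts were 68 and 99 nt.) At the left end the plus strand had more than 50% in 14 of 15 genes, and at the right end in 0 of 15. The exception at the left was mt-Nd6, with 44.8% (95% Wilson interval 32.7 to 57.5). Ends where mRNA genes overlap by more than 1 base were among the least polar, with 51.9% at the left end of mt-Atp6, 57.0% at that of mt-Nd4 and 43.7% at the right end of mt-Atp8. The border of mt-Atp6 and mt-Co3 was as polar as the others, with 7.85% on its left and 98.2% on its right.

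The order was the same in the cluster mt-Ta to mt-Ty, whose genes are all coded on the minus strand. Its left, middle and right parts had 91.7%, 48.2% and 8.81% of alignments on the plus strand. By gene, the plus share was 99.1% in mt-Ta, 48.8% in mt-Tn, 35.6% in mt-Tc and 5.23% in mt-Ty. mt-Nd6, the only mRNA gene coded on the minus strand, did not follow this order, with 44.8%, 70.0% and 40.6% from left to right, and together with its neighbour mt-Te it had 44.8%, 63.4% and 5.30%. In all these units but mt-Nd6 the plus share was lower at the right end than at the left by more than the intervals, whichever strand codes them, and the depth of a bin on one strand is not read here as the level of an RNA of that strand.

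**Figure D3:**
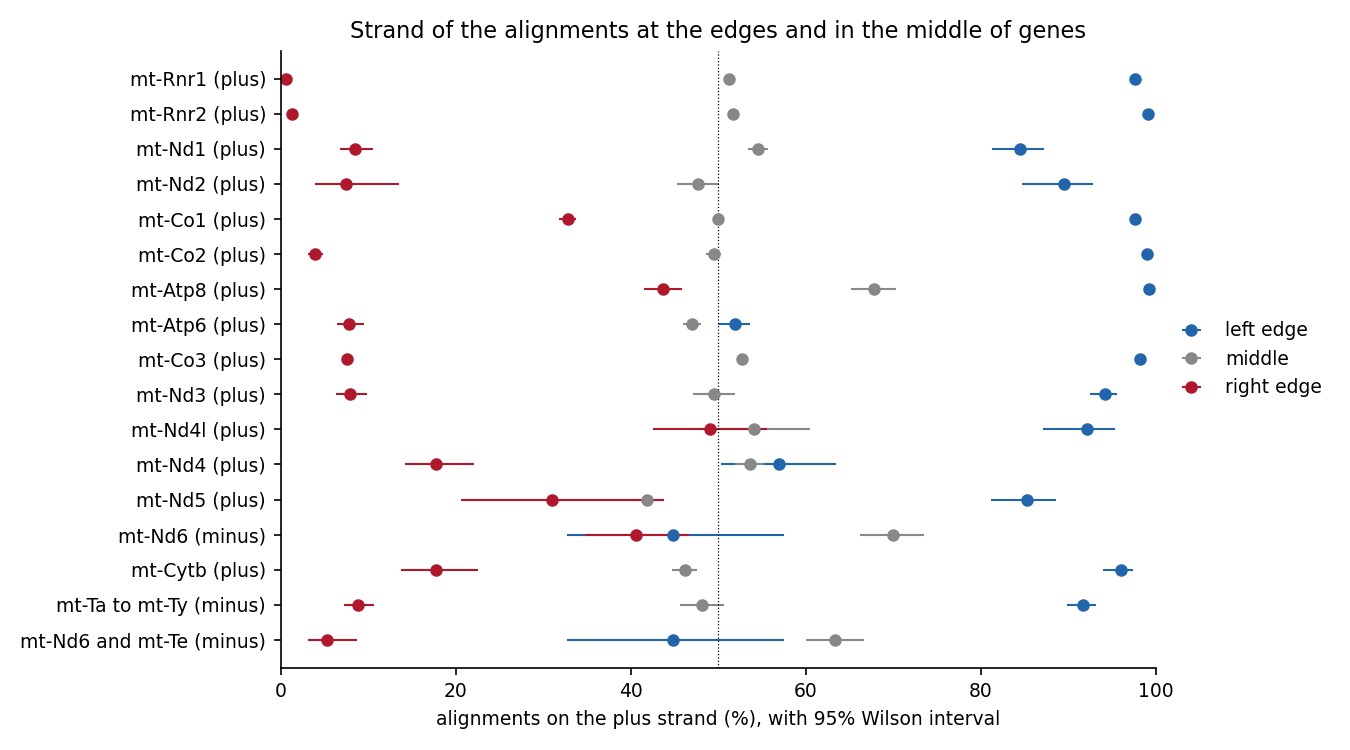
Percent of alignments on the plus strand in the left end, the middle and the right end of the 15 rRNA and mRNA genes and of 2 minus-coded units, with 95% Wilson intervals, and the coding strand in brackets. Blue points (left) have a median of 94.2%, grey points (middle) 51.3% and red points (right) 8.50% over the 15 genes.

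The most frequent alignment ends lay near the annotated gene ends, but not exactly at them. In mt-Rnr2, 24413 plus-strand alignments started at position 1116, 22 nt into the gene, which was 16.8% of those starting within 60 nt of the annotated start. The first 22 bases, in capitals above, preceded position 1116. At the other end, 52144 minus-strand alignments had their right end at position 2643, which was 37.2% of those ending within 60 nt of the annotated end, and the 32 bases in capitals followed it. The bin chrM:2601-2650 accordingly held 255 alignments on the plus and 139176 on the minus strand. The ends where mRNA genes overlap by more than 1 base were left out. Over the 12 remaining rRNA and mRNA genes, the most frequent plus-strand start was 11 to 49 nt inside the gene, with a median of 19 nt. Over 11 right ends, the most frequent minus-strand end stood at a median of -12 nt from the annotated end, from -47 to 18. The right end of mt-Nd6 was left out here, since its most frequent end lay 60 nt past the gene, inside mt-Te and at the edge of the window. The end of mt-Co1 was the one that lay past its annotation, by 18 nt, with 1437 alignments ending at position 6890 inside mt-Ts1.

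At most junctions, alignments that cross from a gene into its neighbour were fewer than even coverage at the mean depth of both sides would give. A junction was counted as spanned where an alignment had at least 10 nt on both sides. The count was divided by that which even coverage at the mean of the flanking 100 nt would give. A ratio of 1 stands for an uninterrupted stretch only where both sides are about equally deep. Where they are not, the deeper side sets the mean, and the ratio is low even if every alignment of the shallower side runs across. Where neighbouring genes overlap or leave a gap, the border was set midway. Over the 37 junctions, the median ratio was 0.149, with 26 junctions under 0.5 and 16 under 0.1. The median was 0.0954 with at least 20 nt on both sides, 0.271 with flanks of 50 nt and 0.702 with identical alignments counted once. The 4 junctions of an rRNA gene with a tRNA gene were among the lowest, at 0.000472 to 0.0164. The flanks are longer than a tRNA gene, so at such a junction the flank on the tRNA side runs on into the next gene, whose depth enters the ratio. The 2 alignments that crossed from mt-Rnr1 to mt-Tv stood beside a mean coverage of 2412 on the mt-Rnr1 side. On the other side it was 11264, in a flank that runs on into mt-Rnr2. The 67 from mt-Rnr2 to mt-Tl1 stood beside 82398 on the mt-Rnr2 side but 107 on the mt-Tl1 side. The low ratio there thus does not show that alignments of mt-Tl1 stop at the border. (The left flank of mt-Rnr1 is cut short at 68 nt by the end of the linear reference.) Between mRNA and tRNA genes the median ratio was 0.0857. No alignment had at least 10 nt on both sides of the border of mt-Ts1 and mt-Td or of mt-Tg and mt-Nd3, where a count of 0 allows up to 3 (one-sided). Around the latter, 28.0% and 72.0% of the 50-nt words of the bins from 9401 and 9451 are found once in mm9. Yet 100% of the alignments in both bins were of reads listed elsewhere too. The 0 at this border may thus not rest on counting error alone, and its cause was not tested.

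Ratios were high at the junctions where mRNA genes overlap, with 1 exception, but not only there. For scale, mt-Th with mt-Ts2 had 0.923 and mt-Tp with the control region 0.755. mt-Atp8 and mt-Atp6, known to be read from a shared mRNA, had 917 spanning alignments and a ratio of 1.20. Their overlap is long enough for such an alignment to lie wholly inside either gene, so this ratio cannot tell a shared mRNA from separate ones. For mt-Nd4l and mt-Nd4, also on a shared mRNA, the count was 69 and the ratio 1.01. None of the alignments spanning either of these junctions was of a read listed once. mt-Nd5 and mt-Nd6 had 14 spanning alignments and a ratio of 0.761. The fourth junction of this kind differed from those, since mt-Atp6 and mt-Co3 share 1 base and are known to be cut apart without a tRNA. It had 39 spanning alignments and a ratio of 0.0341, with a mean coverage of 651 on the mt-Atp6 side and 3036 on the mt-Co3 side. In the bin before the printed border the minus strand held 612 of 657 alignments, and in the bin over it the plus strand held 2183 of 2236.

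The highest ratio, 2.42 with 3524 spanning alignments, none of them of a read listed once, stood between mt-Co1 and mt-Ts1. Here the bin chrM:6851-6900 held 88 alignments on the plus and 3938 on the minus strand, the next one 6 and 374, and the bin within mt-Td 2 and 2. The depth listed for mt-Ts1 thus came with alignments that run on from mt-Co1, and of its own 1912 alignments 1889 were on the minus strand. Junctions between tRNA genes had a median ratio of 0.494. The highest of these were 0.923 for mt-Th and mt-Ts2, 0.759 for mt-Ts2 and mt-Tl2 and 0.632 for mt-Ta and mt-Tn.

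OriL, at chrM:5160-5191, is 32 nt long and was covered. It had 183 alignments, 174 of them on the plus strand, or 5719 per kb, which was below its neighbours mt-Tn and mt-Tc. Of the alignments, 181 spanned the middle between these genes, at a ratio of 0.512. An alignment with its midpoint in OriL spans this middle almost by definition, so the 181 add nothing to the 183. The printed sequence holds 2 arms of 12 bases that pair without a mismatch, at 5159 to 5170 and 5184 to 5195, around a loop of 13. The bins over mt-Ta and mt-Tn held 858 and 366 plus-strand alignments, that over OriL 276, and those over mt-Tc and mt-Ty 219 and 32. On the minus strand the same bins held 5, 504, 11, 485 and 745. The minus strand was thus low at OriL between 2 high bins. Of the alignments on both strands, 100% and 23.2% in these 2 bins and 15.7% in the bin over OriL were listed elsewhere too.

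The control region, chrM:15423-16299, held 646 alignments or 737 per kb (681 to 796), and mt-Nd6, the shallowest mRNA gene, was 2.41-fold deeper (2.18 to 2.67). Of the 646, 48.8% were of reads listed elsewhere too. The region's share of the mitochondrial alignments was 0.0180%, and 0.0102% with only reads listed once and 1.89% with identical alignments counted once. The 17 bins wholly inside it had 0 to 74 alignments with a median of 39. In 4 nearly equal parts from mt-Tp onward, the depth was 635, 918, 1196 and 200 per kb. Of these alignments, 0%, 87.1%, 53.4% and 0% were of reads listed at another place too. The depths of the middle parts, and their rank over the first, thus depend on counting such reads. The share of the plus strand was 46.0% and 47.3% in the first pair, 33.2% in the third part and 9.09% (3.59 to 21.2) in the last. The deepest bin, printed above, had 9 alignments on the plus and 65 on the minus strand, of which 56.8% were listed elsewhere too. From there to the end of the reference the counts of successive bins were 31, 23, 13, 2 and 0. The reference is linear, so no alignment could cross from the control region into mt-Tf, and the first bin of mt-Tf held 38 alignments on the plus strand and 0 on the minus strand. No midpoint can lie in the outermost bases at either end, yet these bases count in the length of mt-Tf and of the last part. The depths per kb of both are thus too low.

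**Figure D4:**
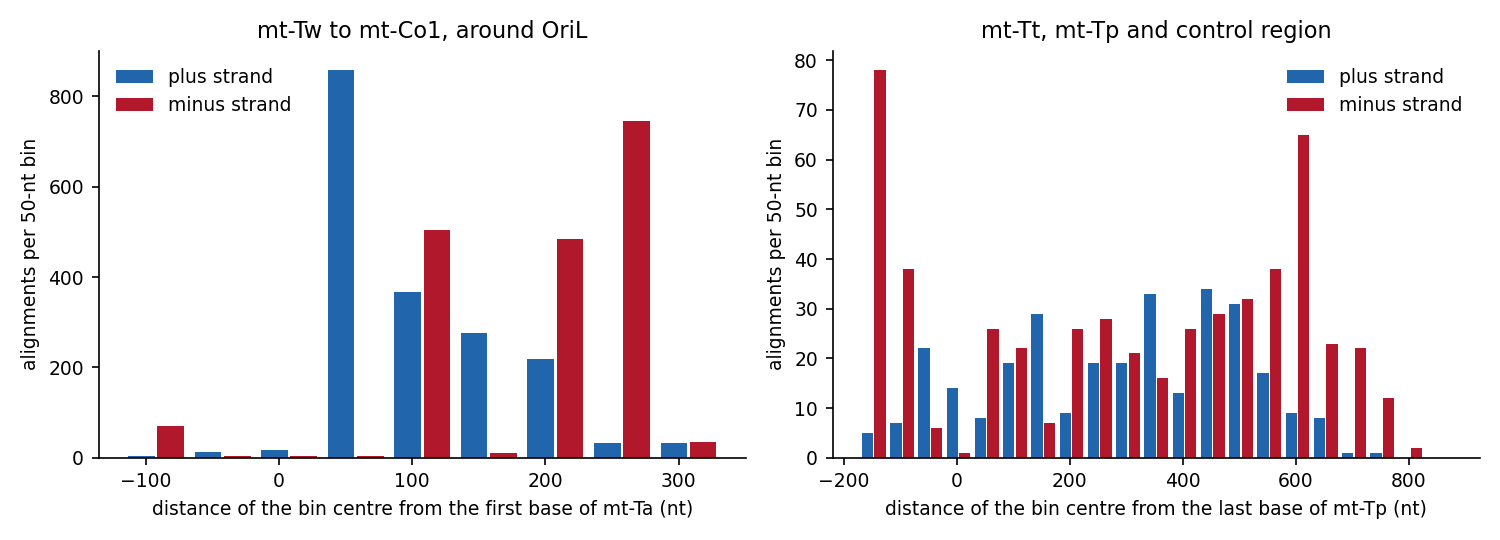
Alignments per 50-nt bin on each strand from mt-Tw to the start of mt-Co1 (left panel, by distance from the first base of mt-Ta) and from mt-Tt over the control region (right panel, by distance from the last base of mt-Tp). Plus-strand counts lead with 858 in the bin at the left of the tRNA cluster and minus-strand counts lead with 745 at its right, while the control region holds at most 74 per bin.

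Many of these alignments are not unique to the mitochondrial genome, because the nuclear genome holds copies of it. Of all 50-nt words of the mitochondrial genome, 64.2% were found once in mm9. Reads listed at another place too made up 333158, or 9.31%, of the mitochondrial alignments, and 329094 of these were listed on a nuclear chromosome. Their 347891 nuclear places fell into 19 clusters. The largest lay on chromosome 1 from 24618374 to 24623023, with 144732 alignments that mostly corresponded to mitochondrial positions 6403 to 10433. The next lay on chromosome 10 from 95540158 to 95540531, with 127344 alignments from mt-Rnr2. Then came chromosome 2 from 22442816 to 22446054, with 44048 mostly from positions 5083 to 7600, and chromosome 6 from 79768074 to 79768344, with 28690 from mt-Rnr2.

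On the mitochondrial side, these alignments were concentrated. Of the 325 bins with alignments, 102 had more than 99% of them listed elsewhere too and 163 had none. The longest unbroken run was 91 bins from 6451 to 11000, with 141582 alignments. All alignments of 6 mRNA genes (mt-Co2, mt-Atp8, mt-Atp6, mt-Co3, mt-Nd3 and mt-Nd4l) and of 7 tRNA genes were of this kind, among them mt-Ts1, mt-Ty and mt-Td. The share was 56.3% in mt-Co1, 48.8% in the control region and 5.17% in mt-Rnr2. In mt-Rnr1 and mt-Nd1 it was 0%. In the nuclear clusters named above, few alignments were of reads not listed on the mitochondrial genome. Their share was 0.0325% on chromosome 1, 0.176% on chromosome 10, 0.104% on chromosome 2 and 0.184% on chromosome 6. It reached 28.2% in a much smaller cluster on chromosome 9. The clusters were found through reads listed on the mitochondrial genome. A read from a nuclear copy of the same sequence would be listed there too, so these shares cannot tell the sources apart. For a read listed at several places, the file alone does not say from which it came, and this was not tested.

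**Figure D5:**
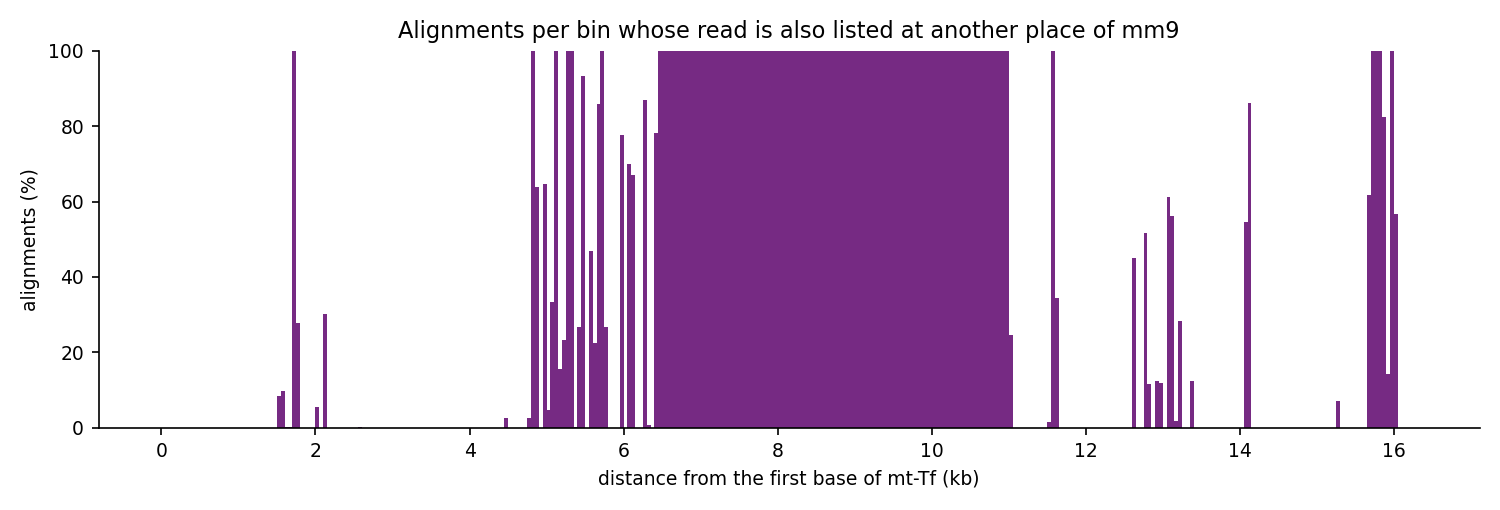
Percent of the alignments of each bin whose read is also listed at another place of mm9, by distance from the first base of mt-Tf (the empty last bin is drawn at 0). In 163 bins the value is 0 and in 102 it is above 99%, with a run of 91 such bins from mt-Co1 to mt-Nd4.

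The NT libraries of CIRS-seq showed another balance between the classes. They differ from the RNA-seq in the start of the RNA (a lysate), in their protocol and in what is counted, so the values are given side by side. Their strand is kept, per the labels. RT stops on mitochondrial genes numbered 803407 in replicate 1 and 572140 in replicate 2, which was 0.328% and 0.258% of the stops of each library. Of these, the rRNA genes held 10.6% and 20.0%, the mRNA genes 77.0% and 62.8% and the tRNA genes 12.5% and 17.3%, where the RNA-seq had 93.1%, 6.72% and 0.181% of alignments.

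By gene, mt-Rnr2 had 49.7 ± 5.55 RT stops per base (SD, n = 2) and mt-Rnr1 had 13.2 and 30.8 in the replicates, whereas they ranked 1 and 2 of the 15 rRNA and mRNA genes in RNA-seq. In NT, mt-Rnr2 was below mt-Co1, mt-Co3, mt-Co2 and mt-Atp6 in replicate 1 and below mt-Co1 alone in replicate 2, and mt-Rnr1 was below all of these in both. By the mean of the replicates the highest of the 15 was mt-Co1 with 197 and 106 RT stops per base in the replicates, then mt-Co3 with 97.3 and 52.9 and mt-Co2 with 77.3 and 46.6. The lowest by the mean was mt-Nd3 with 6.24 and 4.35, which ranked 8 in RNA-seq, although mt-Nd6 was lower in replicate 1, with 5.24. Over the 13 mRNA genes, the depth in RNA-seq and the RT stops per base had a Spearman correlation of 0.824 with replicate 1 and 0.725 with replicate 2, as a description over 13 genes of 1 genome.

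Some tRNA genes stood far apart in the order of the 37 genes in the RNA-seq and, by the mean, in NT. mt-Tv, the valine tRNA, had the most RT stops per base of all 37 genes, 797 and 669, and ranked 29 in RNA-seq. mt-Ts1 ranked 5 in RNA-seq and 30 in NT, with 6.84 and 7.29 RT stops per base, and mt-Ty ranked 11 and 36, with 0.522 and 0.687. Others stood close, such as mt-Tr at 36 and 35, mt-Tl2 at 28 and 31 and mt-Td at 37 and 34. The part of strand and of nuclear copies in these ranks was not tested.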

How the data were processed

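For RNA-seq, the deposited file lists alignments to mm9, each with its start, end, read name and strand. The processing notes of the submitters name TopHat2 2.0.6, Bowtie 1 and FastQC 0.10.1. The score was 0 for every alignment, so none was filtered. For CIRS-seq, the authors deposited raw counts of RT stops per transcript position, without normalization, and only those of the NT libraries were used. Their totals were 245272270 and 221675761 RT stops.

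Genes came from GENCODE vM1 on mm9. An alignment was placed by its midpoint. Depth per kb is the number of midpoints in a gene divided by its length, and overlapping genes share them. Every listed place of a read was counted. Intervals (95%) are Poisson for depths, exact binomial for folds and Wilson for shares; PCR duplicates could not be told from separate molecules. Of the possible starts on both strands, 57.3% were occupied. The counting was tested on simulated data, with the first and last bins left empty. The 37 genes, the control region, OriL, all junctions and the 5 deepest and 5 shallowest bins were to be named, and the members and lists were chosen with earlier results of these data known. The marker Sox1 was not matched and is not reported. The alternatives were other ways to place, filter and bin alignments. Python 3.11.15, numpy 2.4.6, pandas 2.3.3, scipy 1.17.1, numba 0.67.0 and matplotlib 3.10.9 were used. DMS and CMCT libraries were not analysed here.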

Additional observations from a re-analysis of the deposited data

How the results depend on the processing

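No paired analysis was possible because the results come from no test. Of 46 values under alternatives, 14 stayed within the counting interval, under a change of 1.5 times for counts of bins, or within 1 SD of the replicates for the RT stops, which with 2 replicates holds by construction. Counting only reads listed once (chosen after seeing the data) raised the mitochondrial share of alignments from 11.2% to 17.4%, the share in rRNA genes to 97.7%, in the 10 deepest bins to 38.7% and on the plus strand to 52.2%. It lowered the tRNA share to 0.0598%, that of the control region to 0.0102% and the median bin to 82.0, and left 208 of the 652 bins empty. As 6 mRNA genes then have none, the fold between the highest and the lowest could not be taken, and mt-Co1 is highest. Counting every read once gave a mitochondrial share of 15.8%. Counting identical alignments once gave 0.158%, with 24.8% in rRNA genes, 4.31% in tRNA genes, 1.89% in the control region, 51.4% on the plus strand, 5.37% in the 10 deepest bins, a median bin of 52.0, an mRNA fold of 2.82 (mt-Co1 highest here too) and a median junction ratio of 0.702. With 57.3% of places occupied, such counts cannot grow with depth in deep genes.

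Placing alignments by their 5′ end gave 6 empty bins, a median of 293, 35.2% in the 10 deepest bins and 0.252% in tRNA genes. Per-base coverage gave 2, 308, 34.4% and 0.197%. Bins starting at position 25 gave 6 empty bins and 35.7% in the 10 deepest, and the 179 bins found once in the genome had a median of 211. Leaving out 50 nt at gene ends gave an mRNA fold of 40.8. The median junction ratio was 0.0954 with 20 nt on both sides and 0.271 with flanks of 50 nt. The RT stops per base of mt-Co1 over those of mt-Rnr2 were 3.14 on average, 1.97 without NT replicate 1 and 4.31 without NT replicate 2. A filter on mapping score was not run, as the file holds none that can be used. The cause of these shifts was not tested. Depth limits the bins and tRNA genes with few alignments, such as mt-Td and the end of the control region. The last bin of the latter is also limited by the end of the linear reference.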

Other observations

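Base composition was set beside depth in the mRNA genes and mt-Rnr2. Over the 212 bins inside mRNA genes, whose G and C content ran from 18.0% to 54.0%, the Spearman correlation with the depth relative to the gene's median bin was 0.0655. Over the 31 bins inside mt-Rnr2 the correlation with depth was -0.271. Bins share 1 library and neighbour each other, so these are descriptions.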
